A study of Mus musculus with 24 samples.

Results

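The carotid arteries of tamoxifen-treated and E4-treated mice were compared directly, gene by gene, with 6 libraries titled TAM against 6 titled E4, out of 24 libraries in the series. Members were chosen by library title alone. The tamoxifen libraries were C11, C12, C13, C32, C33 and C35, and the E4 libraries were C16, C19, C20, C36, C38 and C39. All mice were ovariectomized C57BL/6 females aged 9 weeks, and the arteries were uninjured. The series description gives 3 weeks of treatment for estradiol or tamoxifen and does not mention E4, while the study's methods give a shorter time for its pellets. The sources therefore differ, and whether tamoxifen and E4 were given for the same time is not known. The other groups, 6 vehicle and 6 E2 (17β-estradiol) libraries from mice prepared in the same way, are given only to place a level. The treatment field of the E4 libraries reads placebo, as for vehicle, so their group rests on their titles. Neither the dose nor the route of tamoxifen is given in the sources used here, so whether the doses were matched is not known. By the methods of the study, the E4 data were produced in 1 experiment with those of vehicle and E2. Nothing is said there of the tamoxifen libraries, but the animal numbers of all 4 groups fall in the same pair of runs. The E4 libraries carry a separate, higher block of sample identifiers than the other groups. Whether both blocks were processed alike was not tested.

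E4 (estetrol) is a natural steroid estrogen made by the human fetal liver, which activates nuclear estrogen receptor α (ERα) and has been described as opposing the receptor pool at the cell membrane. Tamoxifen is a nonsteroidal selective estrogen receptor modulator: it occupies the same ligand pocket, but moves the receptor's last helix to another position, so that it recruits a different set of coregulators and acts as an agonist in some tissues and an antagonist in others. Receptor dimers bind inverted repeats of the half-site GGTCA, or reach DNA through other factors, and change transcription of nearby genes. In arteries, ERα is found in endothelium, smooth muscle and adventitial cells.

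Total counts ran from 42967985 to 57686035 in the tamoxifen libraries and from 24647246 to 44224858 in the E4 libraries, the lowest being E4 C38. Levels are given in CPM, counts divided by library size after TMM scaling (trimmed mean of M-values, which sets libraries to a common scale). Tested genes numbered 25056, and the median log2 fold change over all of them was -0.004. Smooth muscle genes of the artery wall were present, with 17 genes that summed to 4786 to 12830 CPM with tamoxifen (median 6349). With E4 they summed to 4563 to 7237 CPM (median 5154). Adipocyte genes summed to 5809 to 8503 CPM with tamoxifen (median 7521) and 6369 to 9488 CPM with E4 (median 7437). Sympathetic neuron genes were also abundant, at 8723 to 14990 summed CPM in all E4 libraries, above the smooth muscle sum in each. Tamoxifen C35 stood apart, with 474.7 summed CPM for that list against 9874 to 14520 in the other 5 tamoxifen libraries. It also had the highest smooth muscle and skeletal muscle levels of its group. Vehicle C5 was lower still for the neuron list, at 93.44 summed CPM against 5623 to 11510 in the other vehicle libraries. The vehicle means given below include it. Thyroid and parathyroid genes reached 3026 summed CPM in E4 C38 and 135.2 in E4 C16, against 7.241 to 37.07 in the other 10 tamoxifen and E4 libraries. Because these are bulk libraries, a smaller share of a cell type and less RNA per cell cannot be told apart.

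A gene was called when its Benjamini-Hochberg adjusted p from edgeR's quasi-likelihood test was under 0.05 and its log2 fold change was over 1 in size. By this rule 50 of the 25056 genes were called (0.2%), of which 19 were higher (0.0758%) and 31 lower (0.124%) with tamoxifen than with E4. Without the fold threshold there were 86 (0.343%), 43 in each direction (0.172% higher and 0.172% lower). The CPM values of the 6 tamoxifen and 6 E4 libraries did not overlap at all for 45 of the 50 called genes, against 231 of all tested genes (0.922%). Of the genes called, 42 encode proteins, 10 had a mean under 1 CPM, and 12 share exon positions with another gene. Major urinary protein genes made up 17 of the 31 lower genes, and the higher genes included Tgm3, which encodes a transglutaminase, and the fibrillar collagens Col1a1, Col1a2 and Col3a1.

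**Figure D1:**
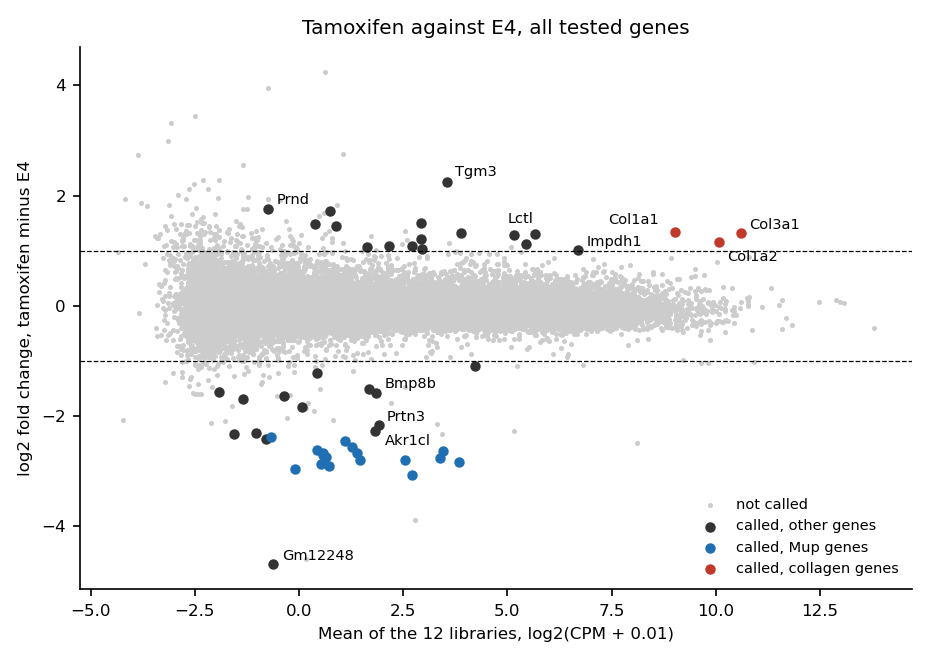
Log2 fold change of tamoxifen minus E4 (vertical axis) against the mean level of the 12 libraries as log2(CPM + 0.01) (horizontal axis), 1 point per tested gene. Dashed lines mark a log2 fold change of 1 and -1; the called Mup genes (blue) lie between -3.07 and -2.39 and the called collagen genes (red) between 1.15 and 1.33 at the abundant end.

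For 28 of the 31 genes called lower, the mean vehicle level was nearer to the tamoxifen than to the E4 mean, and for 30 of the 31 the E2 mean lay beyond the E4 mean. The Mup genes, which share reads and are not independent, made up 17 of the 31. Without them the vehicle mean was nearer to tamoxifen for 11 of 14 genes and the E2 mean lay beyond E4 for 13 of 14. Among all 12718 tested genes with a negative log2 fold change, the shares were 68.5% and 29.7%, so a vehicle mean nearer to tamoxifen was common across the tested genes. The exceptions among the 31 called genes were Fam83a, Gm37472 and Rhbg, whose vehicle mean was nearer to E4, and Fam83a also for the E2 mean. Nearer is a comparison of means and does not place the tamoxifen level at that of vehicle. The genes called higher were split: for 11 of 19 the vehicle mean was nearer to tamoxifen and for 8 it was nearer to E4. The E2 mean was nearer to E4 than to tamoxifen for 16 of these 19. Among all 12292 tested genes with a positive log2 fold change, 71.9% had a vehicle mean nearer to tamoxifen and 35.3% an E2 mean nearer to E4.

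Most genes called lower with tamoxifen belonged to the family of major urinary proteins. These are small secreted lipocalins that carry pheromones and lipophilic ligands and are made mainly in liver and exocrine glands. The annotation lists 49 Mup genes and pseudogenes, 22 of them protein coding. Of these, 19 were expressed enough to test, all 19 had a negative log2 fold change, and 17 were called, 16 protein-coding genes and the pseudogene Mup-ps22. The coding genes called lie in 1 cluster on chromosome 4 (GRCm38, 60066469 to 61782269, minus strand), and Mup-ps22 lies on chromosome 11 (55123695 to 55123937).

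Summed over all 49, Mup transcripts were at 6.705 to 33.34 CPM in the tamoxifen libraries (median 15.41; 17.84 ± 10.12, mean ± SD, n = 6). In the E4 libraries the sum was 56.65 to 223.8 CPM (median 112.6; 120.1 ± 66.73, SD, n = 6), 6.73-fold higher. Every E4 library was above every tamoxifen library. Vehicle libraries held 6.491 to 23.76 CPM, within and below the tamoxifen range, and E2 libraries 325.4 to 954.9 CPM. These sums rest on 315 to 1495 counts per tamoxifen library and 1853 to 8152 counts per E4 library.

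Among single members, Mup22 was the most abundant, with 1.21 CPM in the lowest, 3.30 in the median and 6.58 in the highest tamoxifen library, against 12.1, 24 and 45.6 CPM with E4. Its log2 fold change was -2.82 (SE 0.429, adjusted p = 0.000992, edgeR). Mup18 had 0.873, 2.41 and 5.06 CPM with tamoxifen against 7.88, 17.1 and 31.2 CPM with E4. Its log2 fold change was -2.76 (SE 0.416, adjusted p = 0.000966, edgeR). Neither gene's groups overlapped. Mup7, with a mean under 1 CPM over the 12 libraries, had the lowest fold change of the coding members at -2.96 (SE 0.46, adjusted p = 0.00132, edgeR). Mup8 was next at -2.91 (SE 0.393, adjusted p = 0.000474, edgeR), at a mean of 0.383 CPM with tamoxifen and 2.90 CPM with E4. Mup1, Mup2, Mup10, Mup15 and Mup9 fell by 2.87, 2.80, 2.79, 2.74 and 2.70 on the log2 scale, each with an adjusted p of 0.00152 or lower in edgeR's test. The remaining 2 tested members, Mup3 (log2 fold change -0.96, adjusted p = 0.347, edgeR) and Mup21 (-1.07, adjusted p = 0.616), were not called and averaged under 1 CPM in both groups.

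Many Mup genes are close copies of each other. In the 16 coding members called, a median of 71.3% of the 150-base stretches of their annotated transcripts, the length of 1 sequencing read, also occurred in another Mup gene (40.4% in Mup17 to 100% in Mup22), while Mup3, Mup21 and Mup-ps22 shared 0%. The 0% of Mup-ps22 rests on 94 stretches and on exact matches only, so it does not show that its reads are separate. Because of the shared stretches, reads could be divided among members in the counting, and the members are not independent measurements of each other. The sum over the family is less exposed to that division. The promoters of 2 abundant members show how alike their upstream sequences are. The bases before the RefSeq start of Mup18 (GRCm38.p6, chr4:61674095-61674344, minus strand) and of Mup10 (chr4:60582156-60582405, minus strand), 250 each, are printed 5′ to 3′ with the letters TATATAA, on either strand, in capitals.
Mup18: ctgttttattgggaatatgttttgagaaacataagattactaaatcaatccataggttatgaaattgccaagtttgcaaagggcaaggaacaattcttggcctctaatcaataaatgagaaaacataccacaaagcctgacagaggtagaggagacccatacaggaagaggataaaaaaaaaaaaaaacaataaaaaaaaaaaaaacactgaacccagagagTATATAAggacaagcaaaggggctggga
Mup10: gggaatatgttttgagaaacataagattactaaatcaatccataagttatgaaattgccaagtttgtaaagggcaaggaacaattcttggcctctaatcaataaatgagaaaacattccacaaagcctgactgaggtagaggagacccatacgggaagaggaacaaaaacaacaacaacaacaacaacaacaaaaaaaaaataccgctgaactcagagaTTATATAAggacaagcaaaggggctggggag

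The longest run identical in both was 49 bases, and 210 bases fell in matching blocks in the same order. The letters TATATAA, the core box of many promoters, were present in 7 of the 10 promoters of called Mup genes in the RefSeq table, in 0 of the 27 promoters of other called genes, and in 3.038% of all 32851 promoters of the same length. The estrogen receptor half-site GGTCA, searched on both strands, was in 0 of the 10 Mup promoters, in 10 of the 27 others and in 35.241% of all promoters. The full palindrome GGTCANNNTGACC was in 0 of the 37 promoters of called genes and in 0.064% of all. These are letter matches in 250 bases only, for the 32 called genes with an entry.

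Beyond the Mup family, 14 genes were called lower with tamoxifen, and the abundant ones were singled out here after their values were seen, except Prtn3 and Bmp8b, which belong to prepared lists. Akr1cl, an aldo-keto reductase family member, had 0.905 CPM in the lowest, 1.25 in the median and 1.43 in the highest tamoxifen library and 3.62, 5.11 and 9.86 CPM with E4. The log2 fold change was -2.26 (SE 0.313, adjusted p = 0.000574, edgeR). Akr1cl overlaps Gm8550 on the opposite strand. Its groups were apart, the vehicle mean was 0.943 CPM and the E2 mean 28.01 CPM. Its RefSeq promoter (GRCm38.p6, chr1:65032760-65033009, minus strand) is shown because it is a coding gene of this group that is not part of a gene cluster and holds a GGTCA half-site, in capitals.
Akr1cl: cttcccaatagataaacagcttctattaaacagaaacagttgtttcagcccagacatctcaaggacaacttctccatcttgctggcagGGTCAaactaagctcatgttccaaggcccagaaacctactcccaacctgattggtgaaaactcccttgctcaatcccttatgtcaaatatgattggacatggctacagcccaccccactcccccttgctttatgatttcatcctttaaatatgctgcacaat

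Prtn3 encodes proteinase 3, a serine protease of neutrophil granules. It had 0.603, 1.35 and 1.99 CPM (lowest, median and highest) with tamoxifen and 3.21, 5.36 and 10.5 CPM with E4, without overlap. The log2 fold change was -2.16 (SE 0.286, adjusted p = 0.00038, edgeR). It was the single called gene of the 13 tested neutrophil genes, whose median log2 fold change was 0.043, or 0.223 without C35. The defining granule and chemotaxis genes of that list were not called: Elane was at -0.26 (adjusted p = 0.852) and S100a8 at 0.35 (adjusted p = 0.881) in edgeR's test. Prtn3 overlaps Plppr3 on the opposite strand, and whether counting used strand is not stated, so reads from the pair cannot be told apart.

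Bmp8b, a bone morphogenetic protein, had 1.12, 1.84 and 2.26 CPM with tamoxifen and 3.24, 5.28 and 6.77 CPM with E4, without overlap. The log2 fold change was -1.57 (SE 0.183, adjusted p = 9.89e-05, edgeR). The vehicle mean of Bmp8b was 1.60 CPM and the E2 mean 15.2 CPM. Its close copy Bmp8a had a log2 fold change of -1.64 but was not called (adjusted p = 0.0719, edgeR). Bmp8b overlaps Ppie and the called transcript Gm17244 on the opposite strand, so their reads cannot be told apart. Of the 33 BMP pathway genes tested, Bmp8b was the single gene called, and the list median was 0.022.

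Ano4, a calcium-regulated membrane protein of the anoctamin family, differed by -1.84 on the log2 scale (SE 0.299, adjusted p = 0.00198, edgeR), between means of 0.453 and 1.63 CPM. Fam83a differed by -1.50 (SE 0.216, adjusted p = 0.000711, edgeR), with 1.28 to 2.12 CPM under tamoxifen and 2.50 to 6.07 CPM under E4. The mean of Fam83a was 1.66 CPM with tamoxifen, 2.99 CPM in vehicle and 4.69 CPM with E4. Tsku, the secreted protein tsukushi, differed by -1.10 (SE 0.21, adjusted p = 0.0125, edgeR), and its groups overlapped, with 8.24 to 16.6 CPM against 14.6 to 31.1 CPM. Gm12248, a transcript without an assigned function, had the largest fold change of all called genes, -4.69 (SE 0.376, adjusted p = 2.35e-07, edgeR). It was at 0 to 0.149 CPM with tamoxifen (0 to 7 counts per library) and at 0.914 to 2.02 CPM with E4. The other genes of this group were Arhgap40, Rhbg, Gm5608, Gm17244, Gm37472, Gm37820 and Gm44876, with mean levels under 2 CPM in both groups.

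**Figure D2:**
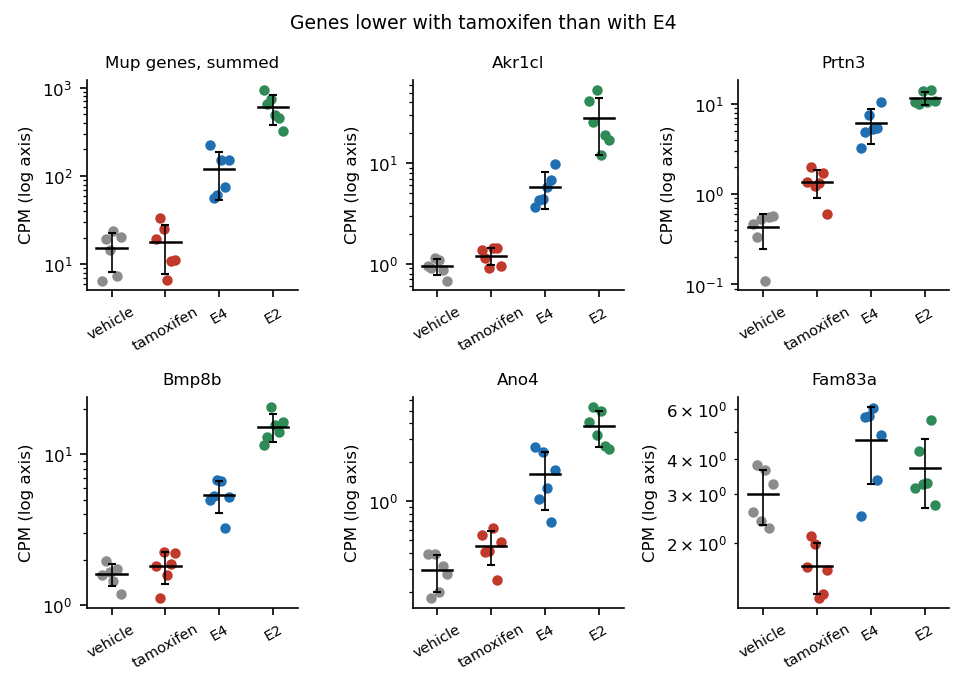
Level in CPM (vertical log axes) of the Mup genes summed, Akr1cl, Prtn3, Bmp8b, Ano4 and Fam83a in each library (points) of the vehicle, tamoxifen, E4 and E2 groups; lines mark the mean and bars 1 SD, n = 6. The tamoxifen and E4 points do not overlap in any of the 6 panels, and the Mup sum runs from 6.705 to 33.34 CPM with tamoxifen and from 56.65 to 223.8 CPM with E4.

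Among the 19 genes called higher with tamoxifen, Tgm3 had the largest fold change. It encodes transglutaminase 3, an enzyme that crosslinks proteins, best known from the epidermis and hair follicle. Tgm3 had 12.8 CPM in the lowest, 16.6 in the median and 33.3 in the highest tamoxifen library and 3.03, 3.44 and 7.60 CPM with E4. The log2 fold change was 2.24 (SE 0.269, adjusted p = 0.000127, edgeR), 4.74-fold between the means. All tamoxifen libraries were above all E4 libraries, of which E4 C39 was the highest. Vehicle libraries were at 0.983 to 3.06 CPM and E2 libraries at 2.82 to 4.43 CPM, so that tamoxifen stood above each other group. The promoter of Tgm3 (GRCm38.p6, chr2:130012090-130012339, plus strand) is shown as that of the gene raised most, with 2 GGTCA half-sites on the minus strand, read as TGACC, in capitals.
Tgm3: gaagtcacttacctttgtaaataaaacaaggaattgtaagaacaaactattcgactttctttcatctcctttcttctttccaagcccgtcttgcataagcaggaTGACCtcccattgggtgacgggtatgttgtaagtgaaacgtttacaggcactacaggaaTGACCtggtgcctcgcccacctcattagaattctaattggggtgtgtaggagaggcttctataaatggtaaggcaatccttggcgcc

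The fibrillar collagens were the most abundant genes called. Col1a1 encodes the α1 chain of type I collagen, the main fibril of the adventitia. Col1a1 was at 605, 731 and 913 CPM (lowest, median and highest) with tamoxifen and at 216, 293 and 414 CPM with E4, a log2 fold change of 1.33 (SE 0.165, adjusted p = 0.000184, edgeR). Col1a2, the partner chain, was at 1158, 1434 and 2049 CPM against 502, 671 and 863 CPM, a log2 fold change of 1.15 (SE 0.156, adjusted p = 0.000483, edgeR). Col3a1, type III collagen of distensible tissues, was at 1618, 2130 and 2901 CPM against 676, 865 and 1188 CPM, a log2 fold change of 1.31 (SE 0.167, adjusted p = 0.000239, edgeR). No library of either group crossed into the other for any of the 3 genes. The called transcript Gm47302 lies within Col3a1 and cannot be counted as a separate gene.

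The 3 collagen genes together took 4449 ± 801 CPM (SD, n = 6) with tamoxifen and 1858 ± 415 CPM with E4, against 3220 ± 699 CPM in vehicle and 2573 ± 258 CPM in E2 libraries. Vehicle thus lay between tamoxifen and E4. Tamoxifen C35, the tamoxifen library with few neuronal transcripts, held the highest sum. Without it the 3 log2 fold changes were 1.26 for Col1a1, 1.03 for Col1a2 and 1.21 for Col3a1, with adjusted p of 0.000551, 0.00127 and 0.000551 in edgeR's test. Markers of adventitial fibroblasts, the collagen-producing cells of the outer layer, had a median log2 fold change of 0.221 over 15 genes, 0.085 without C35, and 0 of them were called. Their summed level was 6841 to 10960 CPM with tamoxifen and 5753 to 9401 CPM with E4, and the part of tissue composition in the collagen difference was not tested.

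Over the whole list of 34 collagen and elastic matrix genes, 3 were called higher and 0 lower, 31 had a positive log2 fold change, and the median was 0.318, or 0.229 without C35. The median was -0.004 for all tested genes and 0.121 for the 628 tested genes of any list. Markers of the artery's own cells had no called gene, with a positive log2 fold change for 17 of 17 smooth muscle genes (median 0.346, or 0.108 without C35) and 18 of 19 endothelial genes (median 0.227, or 0.102 without C35). Their part in the matrix values was not tested. Sparc, a collagen-binding matricellular protein, and Postn, periostin, had an adjusted p under 0.05 with a smaller fold. Sparc differed by 0.88 (SE 0.139, adjusted p = 0.00145, edgeR) and Postn by 0.87 (SE 0.188, adjusted p = 0.0412, edgeR). Without C35, Sparc was at 0.78 and Postn at 0.68. Sparc passed in all 12 fits that left out a library, whereas Postn did not pass in 9 of them, with the highest adjusted p, 0.123, without tamoxifen C32. Elastin (Eln) was at 0.80 (SE 0.215) and did not pass (adjusted p = 0.152, edgeR). Outside the list, Col4a3, a basement membrane collagen, was at 0.96 (SE 0.195, adjusted p = 0.0227, edgeR), which did not pass in 7 of these fits (up to 0.0737, without E4 C20) and was at 0.80 without C35. Col4a3 overlaps C430014B12Rik on the opposite strand.

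**Figure D3:**
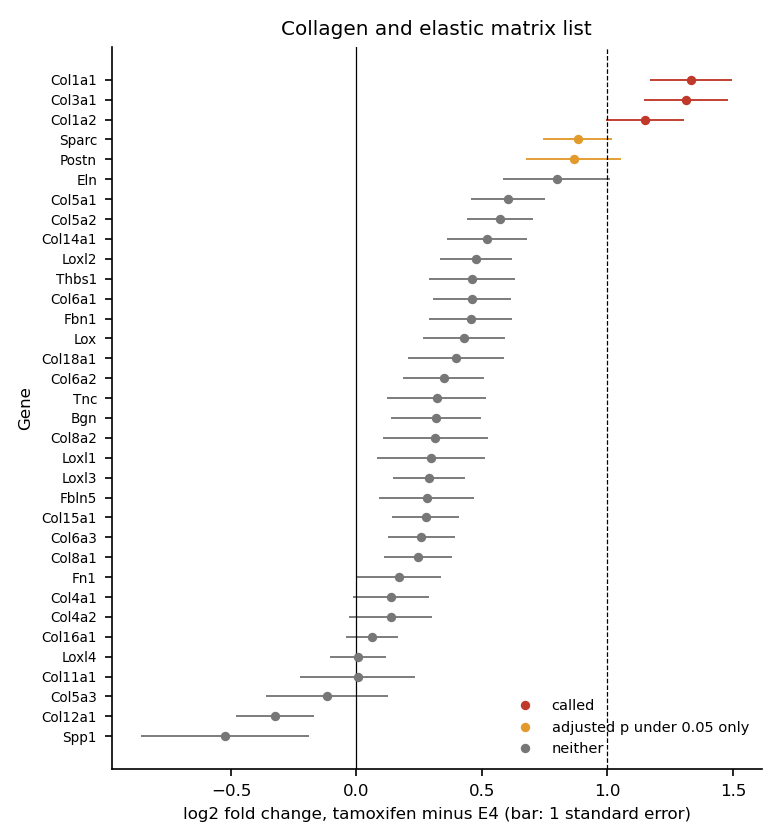
Log2 fold change of tamoxifen minus E4 (horizontal axis, bars 1 standard error) for the 34 genes of the collagen and elastic matrix list (vertical axis), from the fit of all libraries. Col1a1, Col3a1 and Col1a2 (red) lie above 1, Sparc and Postn (orange) pass the adjusted p alone, and 31 of the 34 genes lie above 0.

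Of the 25 matrix protease and inhibitor genes, Adamts15 alone was called. It encodes a secreted protease that cleaves the proteoglycans versican and aggrecan. Adamts15 was at 46.8, 53.5 and 93.6 CPM with tamoxifen and 22.5, 24.5 and 40.0 CPM with E4, without overlap, and the log2 fold change was 1.12 (SE 0.159, adjusted p = 0.000616, edgeR). Without tamoxifen C32, the highest library, it fell under the fold threshold at 0.95. Adamts2, which trims the amino-terminal propeptide from fibrillar procollagens, was at 0.77 (SE 0.169, adjusted p = 0.0452, edgeR) and lost its adjusted p in 10 of the 12 fits that left out a library, with the highest value, 0.135, without E4 C19. The list median was 0.209.

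Other genes called higher include Wif1, a secreted inhibitor of Wnt ligands, with 11.9, 17.3 and 43.4 CPM against 6.00, 8.53 and 10.4 CPM. Its log2 fold change was 1.33 (SE 0.276, adjusted p = 0.0276, edgeR), and 0.98 with an adjusted p of 0.0673 without tamoxifen C35, the highest library. The vehicle mean of Wif1, 21.5 CPM, was close to the tamoxifen mean of 21.1 CPM. Lctl, a relative of lactase and klotho, had 36.9, 46.1 and 73.4 CPM against 17.0, 21.1 and 26.3 CPM (log2 fold change 1.28, SE 0.217, adjusted p = 0.00331, edgeR). It overlaps Zwilch on the opposite strand, which was at 0.71 (adjusted p = 0.0436, edgeR) and did not pass in 9 of the 12 fits. Cpn2, a carrier subunit of carboxypeptidase N, had 9.12 to 11.7 CPM against 2.67 to 6.52 CPM (1.22, SE 0.257, adjusted p = 0.0313, edgeR). Nat8f3, an N-acetyltransferase family member, had 1.62 to 3.09 CPM against 0.609 to 1.54 CPM (1.45, SE 0.241, adjusted p = 0.00266, edgeR). Ppp1r36, a protein phosphatase subunit, had 1.27 to 2.99 CPM against 0.486 to 0.797 CPM (1.48, SE 0.26, adjusted p = 0.00479, edgeR). For Cpn2, Nat8f3 and Ppp1r36 the groups did not overlap, and the vehicle means of 11.6, 4.05 and 1.80 CPM were near to or above the tamoxifen means of 10.5, 2.68 and 1.90 CPM.

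Further coding genes called higher were Prnd, Cpz, Impdh1 and 2010003K11Rik. Prnd, which encodes the prion-related protein doppel, was at 0.448 to 1.32 CPM with tamoxifen, 0.162 to 0.302 CPM with E4 and 1.97 to 3.71 CPM in vehicle (log2 fold change 1.76, SE 0.26, adjusted p = 0.000856, edgeR). Prnd shares exon positions with Prn. Cpz, a secreted carboxypeptidase that binds Wnt ligands, was at 6.90 to 13.04 CPM against 2.59 to 6.42 CPM (1.08, SE 0.22, adjusted p = 0.0227, edgeR). Impdh1, an enzyme of guanine nucleotide synthesis, was at 88.3 to 185 CPM against 60.02 to 79.8 CPM (1.01, SE 0.204, adjusted p = 0.0225, edgeR). For 2010003K11Rik the fold change was 1.07 (SE 0.202, adjusted p = 0.011, edgeR), and the vehicle mean of 8.59 CPM lay above both the tamoxifen mean of 4.14 CPM and the E4 mean of 1.98 CPM.

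The muscle genes Mb (myoglobin) and Myom3 (a sarcomeric M-band protein) were also called, as genes singled out after their values were seen. Mb was at 5.46 to 15.9 CPM with tamoxifen and 2.98 to 7.04 CPM with E4, with overlap, a log2 fold change of 1.49 (SE 0.286, adjusted p = 0.0125, edgeR). Mb overlaps the called transcript Gm49540 on the other strand. Myom3 was at 3.99 to 8.66 CPM against 2.51 to 3.09 CPM (1.09, SE 0.158, adjusted p = 0.000711, edgeR), and 0.96 without C35. The 13 skeletal muscle markers had a median log2 fold change of 0.704, which was -1.15 without C35, and 0 were called. Their summed level was 72.1 to 320 CPM with tamoxifen and 71.4 to 182 CPM with E4. Mb without C35 was at 1.52 (adjusted p = 0.0158, edgeR), but it lost its call when the 12 tamoxifen and E4 libraries were fitted alone (1.49).

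**Figure D4:**
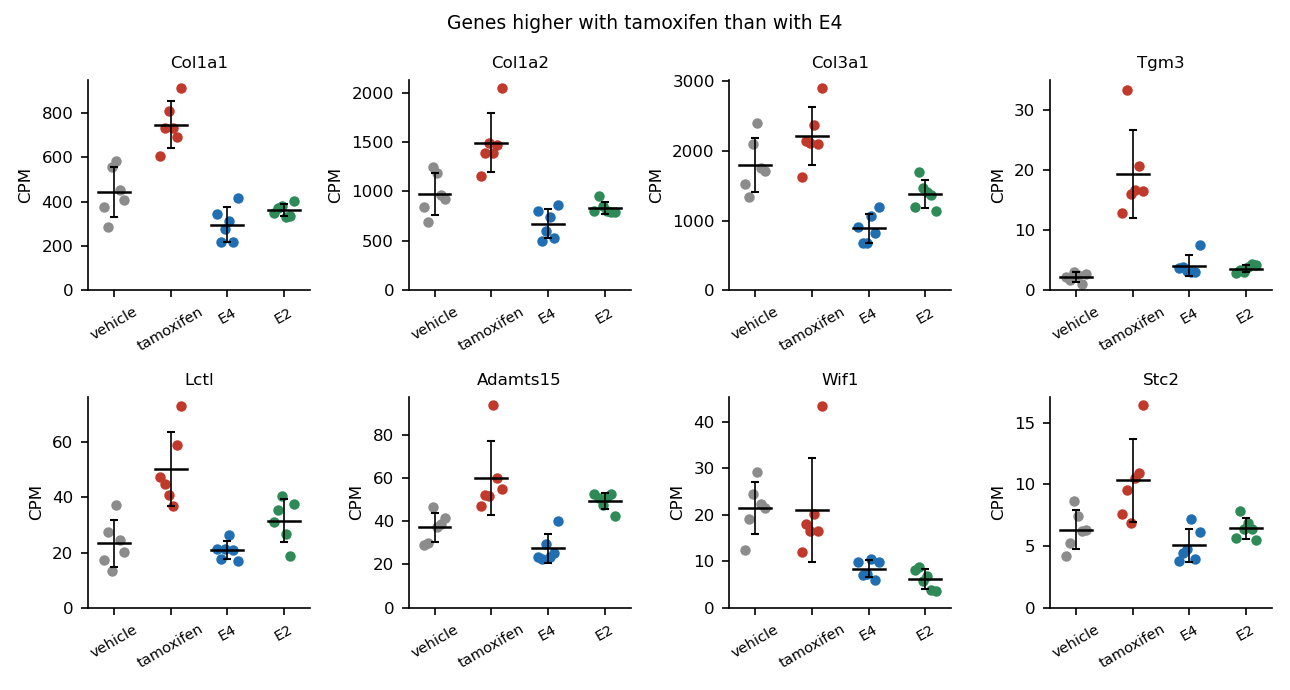
Level in CPM (vertical axes from 0) of Col1a1, Col1a2, Col3a1, Tgm3, Lctl, Adamts15, Wif1 and Stc2 in each library (points) of the vehicle, tamoxifen, E4 and E2 groups; lines mark the mean and bars 1 SD, n = 6. Tamoxifen and E4 overlap in the Stc2 panel and in no other, Tgm3 with tamoxifen (12.8 to 33.3 CPM) stands above all 3 other groups, and the vehicle means of the collagens lie between tamoxifen and E4.

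Genes of the estrogen pathway itself were examined as lists. Of the 45 estrogen response genes tested, Stc2 was called, 18 had a positive log2 fold change, and the median was -0.101, or -0.03 without C35. Stc2, a secreted glycoprotein of the stanniocalcin family, was at 6.90, 10.02 and 16.4 CPM with tamoxifen and 3.79, 4.602 and 7.21 CPM with E4, with overlap (log2 fold change 1.03, SE 0.199, adjusted p = 0.0142, edgeR). It did not pass the fold threshold without C35 (0.84). Its relative Stc1 lay the other way at -0.87 (SE 0.213), with 9.28 to 16.5 CPM against 14.8 to 34.1 CPM, and was not called (adjusted p = 0.0887, edgeR).

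Greb1, a coactivator and a classical ERα target, was at 0.952, 1.66 and 2.48 CPM with tamoxifen and 2.45, 3.34 and 3.56 CPM with E4, overlapping at the margin. Its log2 fold change was -0.88 (SE 0.293, adjusted p = 0.305, edgeR), between a vehicle mean of 1.43 and an E2 mean of 7.61 CPM. That vehicle mean includes vehicle C5 at 0.220 CPM, against 1.27 to 1.98 CPM in the other vehicle libraries. Pgr, the progesterone receptor and likewise a target, was at 0.43 (SE 0.171, adjusted p = 0.436, edgeR), with 4.66 to 9.88 CPM against 4.46 to 5.51 CPM. Esr1, which encodes ERα, was at 26.3 to 37.1 CPM and 22.1 to 30.7 CPM, a log2 fold change of 0.31 (SE 0.128, adjusted p = 0.464, edgeR). Gper1, a membrane receptor proposed to bind estrogens, was at 1.04 to 4.34 CPM and 1.63 to 3.75 CPM (-0.02, SE 0.371, adjusted p = 0.99, edgeR). Esr2, which encodes ERβ, had 0 to 7 counts per tamoxifen library and 0 to 10 per E4 library, and was too low to test. In the list of receptors and coregulators, 0 of 20 were called and the median was -0.063, or -0.03 without C35.

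The glucocorticoid-responsive genes Zbtb16 and Fkbp5 were not called, with log2 fold changes of -0.51 (SE 0.344, adjusted p = 0.712, edgeR) and -0.35 (SE 0.188, adjusted p = 0.599, edgeR). Zbtb16 varied widely within groups, from 19.2 to 80.3 CPM with tamoxifen and from 30.3 to 134 CPM with E4. The chemokine Cxcl10 was at 0.20 (SE 0.292, adjusted p = 0.867, edgeR) and the platelet chemokine Ppbp at 0.76 (SE 0.434, adjusted p = 0.634, edgeR), and both overlapped between groups.

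No gene was called in the lists for the circadian clock, immediate early genes, cholesterol, steroid metabolism, angiogenic ligands, nitric oxide, vasoactive ligands, prostanoids, interferon response, MHC class II or the cell cycle. All 26 interferon response genes had a positive log2 fold change (median 0.276, or 0.34 without C35), but their summed level overlapped between the groups. It was 1554 CPM in tamoxifen C13 alone, 679 to 970.0 CPM in the other 5 tamoxifen libraries and 705 to 924 CPM with E4. All 10 MHC class II genes, which present antigen, were positive as well (median 0.394, 454 to 743 CPM against 290 to 619 CPM). The interferon median was 0.554 among the libraries with animal numbers up to 20 and 0.072 among those with higher numbers. Members of a list share the same libraries and are not independent of each other.

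In the marker lists of other cells given next, 0 genes were called, and the summed levels of the groups overlapped. All 19 T cell genes were positive, with a median log2 fold change of 1.06 and a summed level of 16.2 to 67.9 CPM with tamoxifen and 13.5 to 22.9 CPM with E4. The median was 1.41 among the libraries with animal numbers up to 20 and 0.452 among those with higher numbers, and tamoxifen C12 and C13 held the highest sums, 47.4 and 67.9 CPM, against 16.2 to 32.1 CPM in the other 4. Cd8a, a defining marker, was at 1.82 with an adjusted p of 0.684 in edgeR's test. The 7 erythroid genes were all negative, with a median of -1.02 and 1900 to 5030 CPM against 3743 to 7476 CPM. B cell genes were at 25.8 to 48.6 and 22.7 to 36.1 summed CPM (median 0.463, or 0.219 without C35) and endothelial genes at 936 to 1846 and 985 to 1491 CPM. All 24 sympathetic neuron genes were negative, with a median of -0.368, or -0.123 without C35. The part of blood and neighbouring tissue in the called genes was not tested beyond the fits below.

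**Figure D5:**
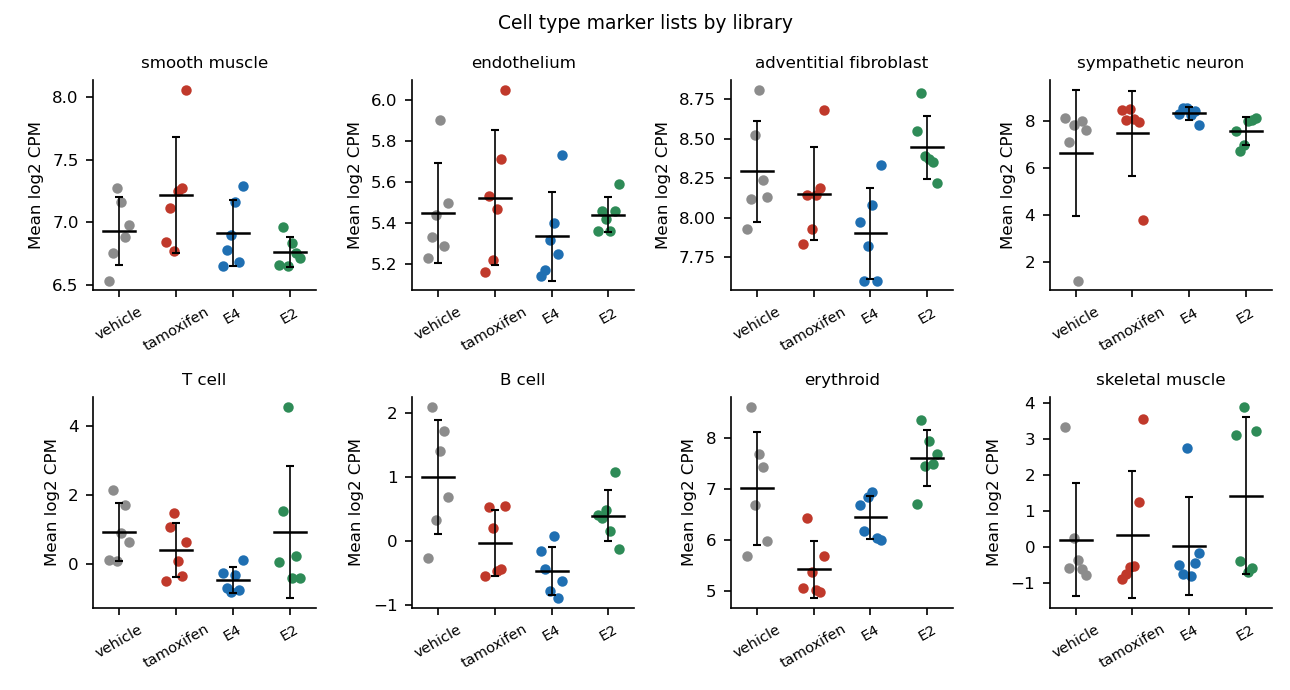
Mean log2 CPM (vertical axes, not starting at 0) of 8 cell type marker lists in each library (points) of the vehicle, tamoxifen, E4 and E2 groups; lines mark the mean and bars 1 SD, n = 6. Tamoxifen C35 lies at 3.80 in the sympathetic neuron panel against 7.95 to 8.48 in the other 5 tamoxifen libraries, and the erythroid list runs from 4.98 to 6.42 with tamoxifen and from 6.00 to 6.94 with E4.

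A further 36 genes had an adjusted p under 0.05 with a log2 fold change of 1 or less. Among those lower with tamoxifen were Il4ra, the interleukin-4 receptor α chain (29.2 to 74.7 CPM against 101 to 138 CPM, log2 fold change -0.93, SE 0.174, adjusted p = 0.0101, edgeR), and Nlrp3, an inflammasome sensor (-0.91, SE 0.191, adjusted p = 0.0286). Stat5a, a cytokine signal transducer, was at -0.79 (SE 0.131, adjusted p = 0.00266, edgeR), Gpam, which starts triglyceride synthesis, at -0.71 (SE 0.107, adjusted p = 0.000966), and Plod2, a collagen lysyl hydroxylase, at -0.70 (SE 0.14, adjusted p = 0.0209). Nlrp3 did not pass in 7 and Plod2 in 5 of the 12 fits that left out a library, with the highest adjusted p, 0.0871 and 0.0697, without tamoxifen C33 in both cases. Il4ra, Stat5a and Gpam passed in all 12. The groups did not overlap for these 5 genes, although the Plod2 ranges met at 96.5 CPM. Plod2 moved opposite to the collagens that its enzyme modifies, as levels. Among those higher were Tgfbi, Bambi and Igfbp3, with log2 fold changes of 0.61, 0.57 and 0.67, which did not pass in 9, 10 and 9 of these fits, with adjusted p of up to 0.131, 0.127 and 0.148 in edgeR's test. Pnp, purine nucleoside phosphorylase, was at 0.56 (SE 0.082, adjusted p = 0.000789, edgeR), and its near copy Pnp2 and 2 overlapping transcripts passed with it and may share its reads. The genes nearest to the fold threshold were Impdh1 (1.01) and Stc2 (1.03) inside, and Slc25a34 (0.98) and Col4a3 (0.96) outside.

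The animals carry numbers in 2 separate runs, up to 20 and from 24 on, and both contain 3 tamoxifen and 3 E4 libraries. What the runs stand for is not stated. The median size of the called genes' log2 fold changes was 1.74 in the first run and 2.00 in the second, and since the genes were called on these same libraries, their direction within a run is no separate evidence. The summed Mup level was 19.5 to 33.3 CPM with tamoxifen and 56.7 to 224 CPM with E4 in the first run, and 6.71 to 11.3 CPM against 75.1 to 154 CPM in the second. With 3 libraries against 3, 15 genes were called in the first run, 10 of them among the 50 and none of the 17 Mup genes, and 0 in the second, where 1303 genes had an unadjusted p under 0.05.

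Leaving out each of the 12 libraries in turn, 36 of the 50 calls were kept in all 12 fits of edgeR and 14 were lost in at least 1. Rhbg and Gm17244 lost theirs in 10 fits and Gm49540 in 8, and Cpn2, Impdh1, Gm5608 and Mup17 lost theirs in 7. Wif1 lost its call in 5 fits, without tamoxifen C32 or C35 or without E4 C19, C20 or C38, with an adjusted p of up to 0.0877. Stc2, Cpz and Gm37820 lost theirs in 4 and 2010003K11Rik in 3. For Adamts15 a single library decided the call (tamoxifen C32), as for Myom3 (tamoxifen C35). Without E4 C20, Cpn2 was at 1.10 with an adjusted p of 0.0998, and without tamoxifen C35, Cpz was at 0.94 and Impdh1 at 0.90, with adjusted p of 0.0673 and 0.0658. Tgm3, Col1a1, Col1a2, Col3a1, Lctl, Akr1cl, Prtn3, Bmp8b, Mup22 and Mup18 kept their calls in all 12 fits. Without tamoxifen C35, 47 genes were called, among them 42 of the 50.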

How the data were processed

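RNA from carotid arteries was sequenced in 24 libraries, 6 per group, and each group was taken from the sample title. Per the labels, poly(A) RNA went through a stranded kit and paired-end sequencing of 150-base reads, and the submitters' processing notes name bcl2fastq (version 2.17), Trim Galore, Bowtie2, featureCounts and GRCm38/mm10. The study's methods place trimming of adapters and low-quality ends first. The alignment and counting settings, and the use of strand in counting, are not given in the sources used here. As deposited, each library has a table of its own with estimated counts that were not normalized, in which 8.868% to 9.805% of the authors' values carry decimals. Of 55421 gene identifiers, 55240 were matched to GENCODE mouse release 21, which gave names and coordinates.

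The members, gene lists and tests were chosen with earlier results of these data known. Counts were rounded to whole numbers and filtered with filterByExpr. edgeR 4.0.16 (R 4.3.3) fitted the quasi-likelihood model to all 24 libraries after TMM scaling, and the contrast tamoxifen minus E4 was tested with Benjamini-Hochberg adjustment over 25056 genes. No covariate was used. The SE of a log2 fold change was taken as its size divided by the square root of the test's F statistic. Nothing states that the samples came from separate animals beyond their numbers, so p-values measure the spread between these samples. Library totals of 24647246 to 64221401 counts set the precision, and each pair of replicates differed by more than counting noise (variance ratio of at least 11.55). On simulated counts, 98% of genes changed 3-fold and 98% of genes changed 4-fold were recovered, with 4 false calls among 24827 genes. Only genes with a mean of at least 1 CPM were changed, and no simulated library stood apart as tamoxifen C35 does. Smaller changes were not simulated, so these rates do not apply to calls near the fold threshold or to genes under 1 CPM.

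Named genes were the 8 highest and 8 lowest called genes with a mean of at least 1 CPM and groups that do not overlap, leaving out predicted genes, 10 genes of interest (Esr1, Esr2, Gper1, Pgr, Greb1, Stc1, Zbtb16, Fkbp5, Cxcl10 and Ppbp), and up to 3 called genes of each of 31 lists, 17 of functions and 14 of cell types. Others were named after their values were seen. Promoter sequences are from RefSeq (GRCm38.p6). Alternatives were DESeq2 1.42.0, another scaling, filters, thresholds, covariates and subsets of libraries.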

Additional observations from a re-analysis of the deposited data

Results flagged for a closer look

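The tamoxifen and E4 groups of 6 were screened for libraries far from the others, and the vehicle and E2 groups were not. A library was picked out when its distance to the nearest of the other 5, divided by the whole range, exceeded Dixon's critical value. Of 128 groups examined, 11 held such a library, against 6.4 by chance at 1 in 20, and no cause was tested.

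Tamoxifen C35 was picked out most often. Its mean log2 CPM was 3.803 in the sympathetic neuron list (7.949 to 8.477 in the other tamoxifen libraries), 4.983 in the cholesterol synthesis and transport list (5.895 to 6.151), 4.401 in the nitric oxide and cGMP list (4.981 to 5.079) and 4.208 in the estrogen response list (4.554 to 4.76). It was also the highest tamoxifen library for Wif1, at 43.38 CPM against 11.89 to 20.27, and for Col1a2, at 2049 CPM against 1158 to 1492.

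Tamoxifen C32 had 93.6 CPM of Adamts15 against 46.78 to 59.84 in the other tamoxifen libraries. Tamoxifen C12 had 2.542 CPM of Ppbp against 0.5109 to 1.254. E4 C39 had 7.595 CPM of Tgm3 against 3.025 to 3.917 in the other E4 libraries, still below each tamoxifen library. E4 C20 had a mean log2 CPM of 2.756 in the skeletal muscle list, against -0.7901 to -0.1626. E4 C38 had a total of 24647246 counts against 37505055 to 44224858.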

How the results depend on the processing

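No paired analysis was possible because the tamoxifen and E4 groups share no replicate number. DESeq2 called 81 genes, 41 of them higher, including 49 of the 50, all but Impdh1. Dropping the fold threshold gave 86 genes, 43 higher. An adjusted p under 0.01 left 11 higher genes. Requiring at least 10 counts in each of the 12 libraries left 17 lower genes, since 15 of the called genes were not tested. Among animal numbers up to 20, 15 genes were called, 9 higher and 6 lower, and among the higher numbers 0 were called in total, 0 higher and 0 lower, by edgeR with 3 libraries per group, where 1303 had an unadjusted p under 0.05. Other settings called 39 to 57 genes (another scaling 49, no filter 48, the 12 libraries alone 39, the number run as a covariate 50, the neuron list 57, the B cell list 49). Of the 50 genes, the 12 libraries alone kept 38, losing Cpz, Mb, Mup14, Mup17, Rhbg, Stc2, Wif1 and 5 Gm transcripts. The number run as a covariate kept 48, losing Gm17244 and Impdh1. The neuron list kept 47, and the B cell list kept 43. Leaving out 1 library gave 43 to 55 genes. Of the genes not called, Gper1 turned positive among the lower numbers (0.066) and with the neuron list (0.202) or B cell list (0.08) as a covariate, and ran from -0.173 to 0.145 without 1 library. Cxcl10 was at -0.215 among the higher numbers. The cause of these changes was not tested. For the 10 called genes with a mean under 1 CPM, low counts limit the precision of the fold changes.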

Other observations

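In the gene lists below, no gene was called by edgeR's quasi-likelihood test, and many list medians depended on tamoxifen C35. The median log2 fold change (tamoxifen minus E4) was 0.182 for 20 circadian clock genes (0.007 without C35), 0.163 for 32 immediate early genes (0.082), -0.056 for 20 glucocorticoid-responsive genes (-0.145) and 0.117 for 29 cell cycle genes (0.056). It was 0.186 for 28 angiogenic ligands and receptors (0.091 without C35), 0.11 for 17 nitric oxide and cGMP genes (0.057), 0.098 for 28 vasoactive ligands and receptors (0.047) and 0.097 for 24 prostanoid and lipoxygenase genes (0.011). The 28 genes of cholesterol synthesis and transport were at -0.103, or 0.014 without tamoxifen C35, and the 28 tested genes of steroid and xenobiotic metabolism at 0.027, or -0.047 without it.

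Of the resident and blood cell markers, the 18 macrophage genes had a median of 0.034 (-0.01 without C35), the 16 Schwann and satellite glia genes -0.051 (-0.176), the 17 adipocyte genes -0.044 (-0.1) and the 8 tested platelet genes 0.063 (-0.019). The 6 tested thyroid and parathyroid genes had a median of 0.068, although their summed level was 3026 CPM in E4 C38. The clock genes had a median of -0.124 among the animals numbered up to 20 and 0.378 among those with higher numbers. These values are descriptions of the lists, whose members share libraries, and no test was made of them.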
